A study of Arabidopsis thaliana with 6 samples.

Results

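The cytokinin genes described here are 37 Arabidopsis loci fixed by gene identifier among the 33341 genes of the count tables. They are 7 CYTOKININ OXIDASE/DEHYDROGENASE genes (CKX1 to CKX7), the ISOPENTENYLTRANSFERASE genes IPT1, IPT3, IPT5 and IPT7, the LONELY GUY genes LOG1, LOG3, LOG4 and LOG7, the receptors AHK2, AHK3 and AHK4, the phosphotransfer genes AHP1, AHP2, AHP3, AHP5 and AHP6, 10 type-A response regulators (ARR3 to ARR9 and ARR15 to ARR17) and 4 type-B response regulators (ARR1, ARR2, ARR10 and ARR12). Of these, 33 passed the filter of more than 10 reads in at least 2 libraries, which 20013 genes of the nuclear genome passed. RNA was measured in GFP-positive nuclei that were sorted by flow cytometry (FANS) from inflorescences on day 4 after the first DEX-induction, at about stage 5 of flower development.

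All plants carried pAP1:AP1-GR in the ap1-1 cal-1 mutant and were of the Ler ecotype, and all received 2 µM dexamethasone with Silwet L-77 daily on the main inflorescence, which synchronizes floral induction. In the 3 libraries labelled AP3 (X13, X16 and X74) the AP3 promoter drove NTF, a GFP fusion at the nuclear envelope. In the 3 libraries labelled AG (X14, X71 and X26) NTF was driven by the second intron of AG with a minimal 35S promoter. The AP3 domain gives rise to petals and stamens and the AG domain to stamens and carpels, so the stamen whorl belongs to both. A nucleus was therefore sorted by the activity of the reporter, not by the transcript of AP3 or AG itself. Inflorescences were pooled in a collection. The study speaks of biological replicates but does not say which collection each library came from, so p-values measure only the spread between these libraries.

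Cytokinins are adenine-derived hormones that promote cell division in the shoot and floral meristem and that pattern the procambium. IPT enzymes make the nucleotide precursors, LOG enzymes release the active base from them, and CKX enzymes degrade it. The AHK receptors are histidine kinases that pass a phosphoryl group through AHP proteins to the type-B ARRs, which are transcription factors. Many type-A ARR genes are induced by the type-B ARRs, and transcripts of such genes are widely used as a readout of cytokinin signalling. Type-A proteins dampen the response. AHP6 lacks the phosphorylated histidine and inhibits the relay.

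Type-B ARRs bind short sites with the core AGATT, and the variants AGATCT and GGATT were searched with it on both strands of the 300 bases before each gene start. The 3 windows below belong to type-A ARRs that were lower in AP3 nuclei and were chosen after the values were seen, ARR9 for the largest difference of them, ARR15 because it shares with ARR6 the most matches of the genes called, and ARR5 because it holds no match. They were read from the RefSeq copy of the TAIR10 genome, which is not of the Ler ecotype, and are written on the strand of the gene. Capitals mark AGATT or, where the site is on the other strand, its complement AATCT.
ARR9, chr3:21108759-21109058, plus strand: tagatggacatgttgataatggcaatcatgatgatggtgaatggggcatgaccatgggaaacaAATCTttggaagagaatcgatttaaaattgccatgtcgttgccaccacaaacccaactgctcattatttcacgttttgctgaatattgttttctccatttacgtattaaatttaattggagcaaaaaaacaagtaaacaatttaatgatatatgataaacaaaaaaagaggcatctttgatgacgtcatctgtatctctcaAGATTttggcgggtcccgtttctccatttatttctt
ARR15, chr1:28133026-28133325, minus strand: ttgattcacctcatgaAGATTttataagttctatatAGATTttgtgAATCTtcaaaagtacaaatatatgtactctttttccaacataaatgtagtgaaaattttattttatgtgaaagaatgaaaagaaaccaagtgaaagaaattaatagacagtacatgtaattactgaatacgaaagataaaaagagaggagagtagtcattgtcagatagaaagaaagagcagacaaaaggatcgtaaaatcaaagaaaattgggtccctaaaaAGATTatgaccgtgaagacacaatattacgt
ARR5, chr3:17760951-17761250, minus strand: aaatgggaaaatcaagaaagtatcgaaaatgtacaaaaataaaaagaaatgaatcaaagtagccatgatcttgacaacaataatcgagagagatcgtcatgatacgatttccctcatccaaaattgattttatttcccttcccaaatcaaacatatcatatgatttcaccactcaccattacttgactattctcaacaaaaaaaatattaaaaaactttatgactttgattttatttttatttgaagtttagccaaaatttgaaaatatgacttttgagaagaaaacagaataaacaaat

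ARR9 held AGATT at positions -36 to -32 from the gene start and on the other strand at -237 to -233, and ARR15 held 4 matches, one of them at -31 to -27. Of the 6 type-A ARRs called lower in AP3 nuclei, 4 held AGATT, 0 held AGATCT and 3 held GGATT. Over 20012 windows of the same length before the genes tested, 70.1% held AGATT, 6.86% held AGATCT, 44.3% held GGATT and 84.5% held any of them, so these short motifs are common. ARR7, whose difference did not pass the test, held 5 matches, more than any of the 6 called genes. No match overlapped another in these windows. A match is a string of letters and not a measured binding site.

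The libraries held between 28808948 and 42089156 counts, and 22923 to 26717 genes had a read in a library. X74 (AP3) and X71 (AG) had the most such genes and are outside the table of normalized values that the authors deposited for the other 4 libraries. The AP3 transcript was higher in the libraries labelled AP3, with a log2 fold change (AP3 over AG) of 2.36 (standard error, SE, 0.50, adjusted p = 0.0216, edgeR). The AG transcript went against its label. It reached 41.5, 75.4 and 94.3 CPM (counts after scaling by library size) in X13, X16 and X74 and 38.4, 41.2 and 14.2 CPM in X14, X71 and X26, a log2 fold change of 1.17 (adjusted p = 0.141, edgeR). AP3 and AG below mean the libraries so labelled, and values without a library name follow the same order. All 6 floral domain markers, AP3 and AG among them, had a positive log2 fold change, at a median of 1.38. Of these, 2 were called higher in AP3 nuclei, AP3 and UFO (3.61, adjusted p = 0.00041, edgeR). PI (1.58), SUP (1.18) and CRC (0.46) were not called. Over all genes tested, 6.4% were called lower in AP3 nuclei and 1.36% higher. Of 26 vascular markers (phloem, xylem and procambium) 24 were tested and 15 were called lower in AP3 nuclei, at a median log2 fold change of -2.53. Their summed level was 109.5 to 127 CPM per kb of gene in the AP3 libraries and 288 to 337 in the AG libraries, and IRX9, a gene of xylan synthesis in secondary walls, was at 0 in X13. Of 4 meristem markers 2 were called lower, KNAT1 and STM, and of 6 epidermis markers 2 were called higher, ATML1 and PDF1. Of the epidermis markers 5 had a positive log2 fold change, while CER6 was at -0.49 and was not called. Of 6 markers of dividing cells 1 was called higher, CYCB1;1 (adjusted p = 0.0133, edgeR). All 6 had a positive log2 fold change, at a median of 0.50, and their part in the result was not tested.

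Of the 9 type-A response regulators tested, 6 were lower in AP3 nuclei, while ARR3, ARR7 and ARR16 did not pass the test. Of the 33 genes tested, 8 were called lower in AP3 nuclei (adjusted p below 0.05 by edgeR's quasi-likelihood test, Benjamini-Hochberg over all 20013 genes) and 1 was called higher. Over all genes tested 7.76% were called, 6.4% lower and 1.36% higher. The genes called lower were ARR4, ARR5, ARR6, ARR8, ARR9 and ARR15, the phosphotransfer gene AHP1 and the oxidase gene CKX4, and the gene called higher was LOG3. In 17 of the 33 genes the AP3 libraries all lay below the AG libraries, against 15.0% of all genes, and in 2, LOG3 and IPT1, they all lay above, against 10.9%. The median log2 fold change over the 33 genes was -0.74, beside 0.03 over all genes tested. In bulk RNA, fewer cells that express a gene and less of its RNA per cell cannot be told apart. The 15 vascular and 2 meristem markers called above were lower in AP3 nuclei, as the 6 type-A ARRs were, and their part in the result was not tested. The remaining markers of these lists were not called, and BRX, MOL1 and CESA4 had log2 fold changes of 0.83, 0.16 and 0.03.

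**Figure D1:**
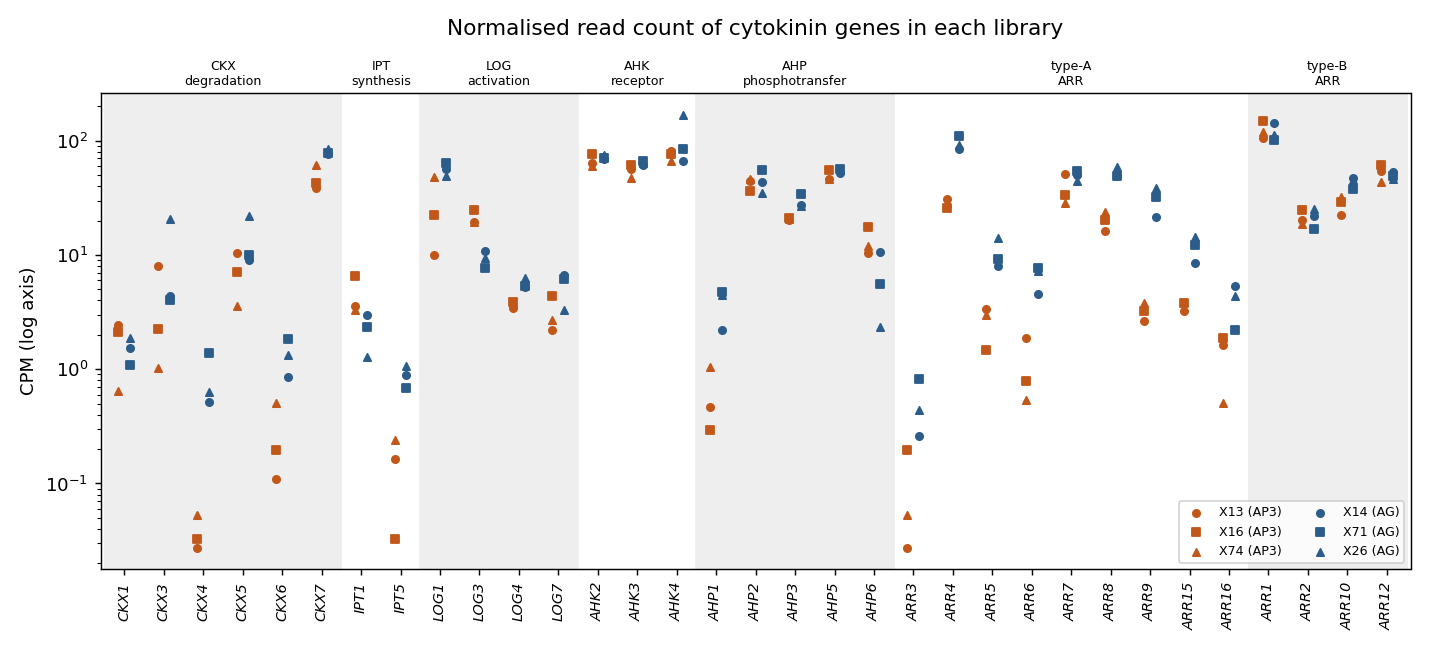
Normalised read count (CPM, log axis) of the 33 tested cytokinin genes in each library, ordered by step, with AP3 libraries in orange and AG libraries in blue. The AP3 points of ARR4, ARR5, ARR6, ARR8, ARR9 and ARR15 lie below all AG points, while those of ARR1, ARR2 and ARR12 lie among them.

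**Figure D2:**
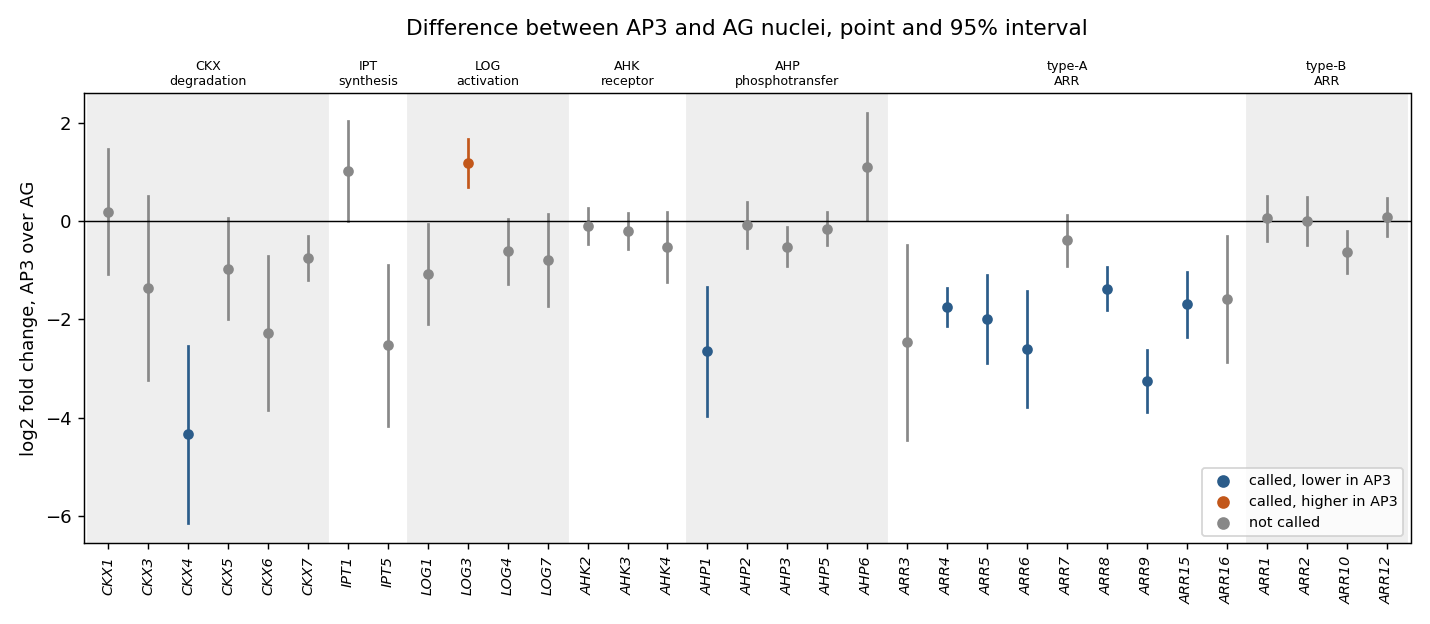
Log2 fold change (AP3/AG) of the same 33 genes with its 95% interval, blue where called lower in AP3, orange where called higher and grey where not called. The 9 type-A ARRs all lie below 0, and the 8 genes called lower include 6 of them.

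The difference of the largest size among the type-A ARRs was that of ARR9 (AT3G57040, chromosome 3, 21109059 to 21111567). ARR9 was at 2.66, 3.22 and 3.77 CPM in X13, X16 and X74 and at 21.6, 32.4 and 38.7 CPM in X14, X71 and X26. Every AG library was thus several times above the highest AP3 library. The log2 fold change was -3.26 (SE 0.28, 95% interval -3.89 to -2.63, adjusted p = 0.000405, edgeR), or 9.59-fold higher in AG nuclei. ARR8 (AT2G41310, chromosome 2, 17221840 to 17224880), the closest relative of ARR9, was at 16.2, 20.2 and 23.99 CPM in the AP3 libraries and at 49.0, 49.5 and 58.5 CPM in the AG libraries, again without overlap. Its log2 fold change was -1.38 (SE 0.19, adjusted p = 0.00353). The ratio of ARR9 to ARR8 counts was close to constant within AP3, at 0.160 ± 0.00337 (SD, n = 3), and stood at 0.585 ± 0.124 (SD, n = 3) in AG. Both genes were lower in AP3 nuclei, by different amounts, but this ratio was chosen after the values were seen and was not tested. Both genes overlap a gene of the opposite strand, by 231 bases for ARR9 and 299 for ARR8, and the counting did not use strand, so reads from there are less certain.

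ARR4 (AT1G10470, chromosome 1, 3441988 to 3444360), a type-A regulator known to interact with phytochrome B, was the most strongly read of the genes called lower. It was at 31.0, 25.7 and 28.4 CPM in X13, X16 and X74 and at 83.9, 109.5 and 92.0 CPM in X14, X71 and X26. Within each group the values were tight and the groups stood far apart, with a log2 fold change of -1.74 (SE 0.17, adjusted p = 0.000674, edgeR). ARR3 (AT1G59940), its closest relative, was read at only 9 counts over the AP3 libraries and 49 over the AG libraries, a depth-corrected ratio of 6.13 with a 95% interval of 2.98 to 14.2 for counting error only. The log2 fold change of ARR3 was -2.47 (adjusted p = 0.146) and did not pass the test. ARR4, ARR8 and ARR9 were called in all 14 alternative analyses.

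ARR5, ARR6, ARR7 and ARR15 are rapidly cytokinin-induced type-A genes, and ARR7 and ARR15 are known as targets of WUSCHEL and auxin signalling in the shoot meristem. ARR15 (AT1G74890, chromosome 1, 28131447 to 28133025) was at 3.21, 3.81 and 3.85 CPM in the AP3 libraries and at 8.56, 12.2 and 14.4 CPM in X14, X71 and X26, a log2 fold change of -1.69 (SE 0.29, adjusted p = 0.00878, edgeR). ARR5 (AT3G48100, chromosome 3, 17758427 to 17760950) was at 3.38, 1.48 and 2.996 CPM in X13, X16 and X74 and at 8.00, 9.16 and 14.1 CPM in X14, X71 and X26, a log2 fold change of -1.99 (SE 0.39, adjusted p = 0.0162). ARR6 (AT5G62920, chromosome 5, 25252007 to 25254318) was at 1.89, 0.789 and 0.535 CPM in the AP3 libraries and at 4.57, 7.76 and 7.24 CPM in the AG libraries, a log2 fold change of -2.60 (SE 0.52, adjusted p = 0.0171). In these 3 genes the groups did not overlap, but the calls of ARR5 and ARR6 rested on single libraries. ARR5 was not called without X16 (adjusted p = 0.0569) or X26 (0.0538), and ARR6 was not called without X16 (0.0757), X71 (0.0575) or X26 (0.0502). ARR6 shares 348 bases with a gene of the opposite strand.

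ARR7 (AT1G19050, chromosome 1, 6577833 to 6579314) was the exception among the type-A genes that were well read. It was at 51.3, 33.6 and 28.2 CPM in X13, X16 and X74 and at 50.0, 53.9 and 44.4 CPM in X14, X71 and X26. The value of X13 lay within the AG range and those of X16 and X74 below it. The log2 fold change was -0.39 (95% interval -0.91 to 0.13, adjusted p = 0.423, edgeR), an interval that lies above that of ARR4 (-2.13 to -1.36). Per kb of gene, ARR7 had the highest mean level of the type-A genes, 29.4 CPM per kb against 26.03 for ARR4. It took 58.7%, 49.6% and 42.7% of the summed type-A level in the AP3 libraries and 31.6%, 28.4% and 24.3% in the AG libraries. The make-up of the type-A pool, as levels per kb, was thus led by ARR7 in every AP3 library and by ARR4 in every AG library. ARR4 held 33.1%, 36.1% and 31.4% in X14, X71 and X26, so its lead in X14 was narrow, 33.1% against 31.6%. These shares were not tested. ARR4 was called lower in AP3 nuclei and ARR7 was not, so the change of leader is no separate result. ARR16 (AT2G40670), the remaining type-A gene tested, was at 1.62, 1.87 and 0.508 CPM in the AP3 libraries and at 5.38, 2.19 and 4.40 CPM in the AG libraries, with an adjusted p of 0.149. ARR17 (AT3G56380) was under the filter, at 2, 0 and 6 counts in the AP3 libraries and 0, 2 and 1 in the AG libraries.

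The type-B regulators, which stand above the type-A genes in the pathway, showed no comparable difference. ARR1 (AT3G16857), the type-B gene with the highest level per kb, was at 106, 149 and 119 CPM in X13, X16 and X74 and at 143, 103 and 113 CPM in X14, X71 and X26, and the groups overlapped throughout. Its log2 fold change was 0.06 (95% interval -0.40 to 0.52, adjusted p = 0.925, edgeR). The intervals of ARR2 (-0.48 to 0.49) and ARR12 (-0.30 to 0.48) also included 0. ARR10 (AT4G31920) was the only one of the 4 whose groups did not overlap, at 22.6, 29.4 and 32.2 CPM in the AP3 libraries and 46.8, 38.0 and 45.4 CPM in the AG libraries, a log2 fold change of -0.63 that did not pass the test (adjusted p = 0.0869). Summed over the 4 genes, the type-B level was 66.7 ± 9.47 CPM per kb (SD, n = 3) in AP3 and 69.4 ± 8.30 in AG. The summed type-A level was 49.8 ± 8.01 CPM per kb (SD, n = 3) in AP3 and 119 ± 11.1 in AG. The type-A level relative to the type-B level was 0.986, 0.589 and 0.712 in the AP3 libraries and 1.37, 2.07 and 1.81 in the AG libraries, without overlap. This ratio sets a step with 6 genes called lower over a step with 0 called. Its separation is thus no result apart from those calls, and it was not tested.

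**Figure D3:**
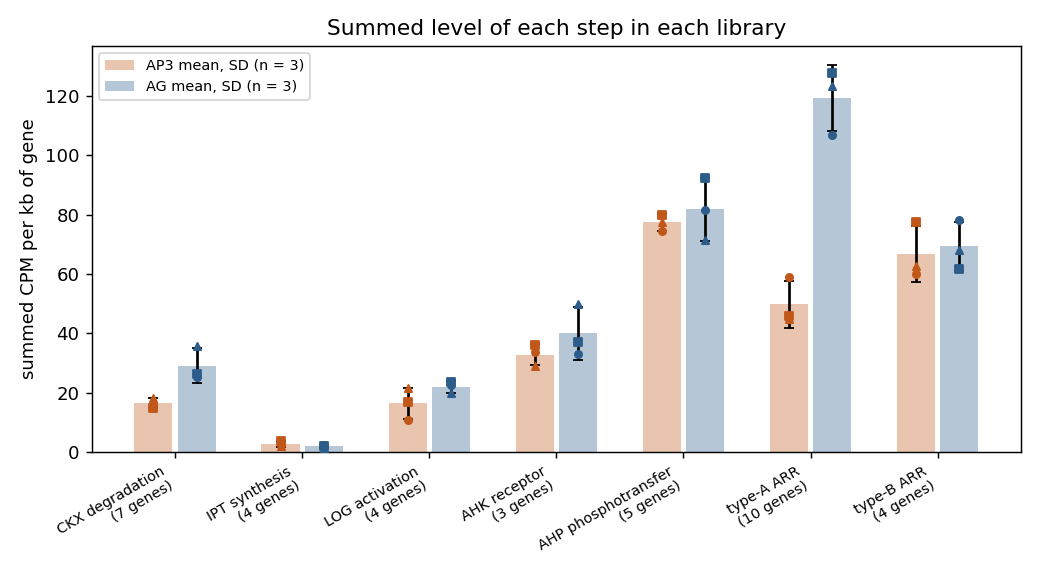
Summed CPM per kb of gene for the 7 steps, with bars at the mean, error bars of 1 SD (n = 3) and a point for each library. The type-A bars stand at 49.8 in AP3 and 119 in AG, whereas the type-B, receptor and phosphotransfer bars lie within the spread of the libraries.

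Upstream of the regulators, no receptor was called between the AP3 and AG libraries. AHK4 (AT2G01830), the receptor known from vascular patterning of the root, was at 80.9, 76.1 and 66.1 CPM in X13, X16 and X74 and at 66.6, 84.6 and 169.7 CPM in X14, X71 and X26. X26 alone stood apart, and the other AG libraries lay near the AP3 range. The log2 fold change was -0.52 (95% interval -1.24 to 0.19, adjusted p = 0.433, edgeR) and came to -0.03 without X26. Its mean level over the 6 libraries, 13.5 CPM per kb against 12.6 for AHK2, was the highest of the receptors through X26, and in AP3 AHK2 was the higher of the pair (12.1 against 11.1). AHK2 and AHK3 had log2 fold changes of -0.10 (interval -0.46 to 0.26) and -0.20 (-0.57 to 0.16).

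Of the phosphotransfer genes, AHP1 (AT3G21510, chromosome 3, 7577712 to 7579789) was called lower in AP3 nuclei and was the least read of the 5. It was at 0.467, 0.296 and 1.04 CPM in X13, X16 and X74 and at 2.21, 4.74 and 4.499 CPM in X14, X71 and X26, a log2 fold change of -2.65 (SE 0.58, adjusted p = 0.0247, edgeR). The call was lost when X13 (0.0878), X16 (0.0974), X71 (0.0806) or X26 (0.0718) was left out. AHP2, the family member with the highest level per kb, was at 44.3, 36.5 and 46.7 CPM in the AP3 libraries and 43.8, 55.9 and 34.9 CPM in the AG libraries (log2 fold change -0.08, interval -0.54 to 0.39). Neither AHP3 (-0.52, adjusted p = 0.12) nor AHP5 (-0.15, adjusted p = 0.692) was called. AHP6 (AT1G80100), the inhibitor of the relay, leaned the other way. It was at 10.4, 17.6 and 11.9 CPM in X13, X16 and X74 and at 10.6, 5.57 and 2.36 CPM in X14, X71 and X26, so that X14 reached the AP3 range. Its log2 fold change of 1.11 (95% interval 0.02 to 2.20) did not pass the test (adjusted p = 0.244), nor did it in any of the 14 alternatives.

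LOG3 (AT2G37210, chromosome 2, 15623928 to 15627032), which encodes an enzyme that activates cytokinin, was the single cytokinin gene called higher in AP3 nuclei. It was at 19.6, 24.8 and 19.3 CPM in X13, X16 and X74 and at 10.8, 7.73 and 9.41 CPM in X14, X71 and X26. The groups did not overlap, and the log2 fold change was 1.19 (SE 0.22, adjusted p = 0.0123, edgeR). The call was lost without X16 (adjusted p = 0.0735). LOG1 (AT2G28305), with the highest mean level per kb of the 4 LOG members, was at 10.101, 22.4 and 47.9 CPM in X13, X16 and X74 and at 56.3, 63.8 and 49.4 CPM in X14, X71 and X26. The AP3 libraries lay below the AG libraries but ranged widely, X74 nearly reaching X26, and the log2 fold change of -1.07 did not pass the test (adjusted p = 0.226). Left out in turn, the libraries gave -1.80 without X74 (adjusted p = 0.0146) to -0.67 without X13 (adjusted p = 0.347). The ratio of LOG3 to LOG1 counts was 1.94, 1.104 and 0.404 in the AP3 libraries and 0.193, 0.121 and 0.191 in the AG libraries. This ratio sets a gene called higher over a gene that leaned lower. It was chosen after the values were seen and was not tested. LOG4 (-0.62, adjusted p = 0.297) and LOG7 (-0.79, adjusted p = 0.347) were not called.

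The 4 IPT members were poorly read. IPT1 (AT1G68460), the best read of them per kb, was at 3.57, 6.58 and 3.29 CPM in X13, X16 and X74 and at 2.99, 2.34 and 1.29 CPM in X14, X71 and X26. It lay above the AG libraries in every AP3 library, but the log2 fold change of 1.02 did not pass the test (adjusted p = 0.256, edgeR). IPT5 (AT5G19040) was at 0.0329 to 0.241 CPM in AP3 and 0.681 to 1.07 CPM in AG (log2 fold change -2.53, adjusted p = 0.0705). IPT3 (AT3G63110) was under the filter, with 1, 0 and 1 counts in the AP3 libraries and 4, 5 and 9 in the AG libraries. IPT7 (AT3G23630) had 1, 0 and 0 against 0, 4 and 0 counts. At this depth a difference in IPT7 was not detectable.

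Among the degradation genes, CKX4 (AT4G29740, chromosome 4, 14566183 to 14569380) was called lower in AP3 nuclei on few reads. It had 1, 1 and 2 counts in X13, X16 and X74, and 4 counts in all against 81 over the AG libraries, where it reached 0.516, 1.39 and 0.629 CPM in X14, X71 and X26. The depth-corrected ratio of AG to AP3 was 22.8, with a 95% interval of 8.56 to 85.6 that covers counting error only, and the adjusted p was 0.0117 (edgeR). The call was lost without X13 (0.0513) or X16 (0.0601). CKX7 (AT5G21482), the cytosolic member of the family, had by far the highest level per kb, with 38.5, 42.7 and 61.3 CPM in X13, X16 and X74 and 76.8, 77.5 and 84.1 CPM in X14, X71 and X26. Its groups did not overlap, and its log2 fold change of -0.74 lay just outside the threshold (adjusted p = 0.0561). In 5 of the 14 alternatives CKX7 was called.

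CKX6 (AT3G63440) had a log2 fold change of -2.28 (adjusted p = 0.0883, edgeR), but 2234 of its 2380 bases lie under a gene of the opposite strand, and 2057 of the 2943 bases of CKX1 do likewise. CKX3 and CKX5 were highest in X26, at 20.8 and 22.0 CPM, and had adjusted p values of 0.438 and 0.286. CKX2 was under the filter, with 1 count over the AP3 libraries and 2 over the AG libraries. Summed over the 7 genes, the CKX level was 16.4 ± 1.71 CPM per kb (SD, n = 3) in AP3 and 29.1 ± 5.76 in AG, most of it CKX7.

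Of 38 further genes of the pathway, 22 passed the filter and 4 were called, with a median log2 fold change of -0.07 over the 22. Of the 4, 2 were lower and 2 higher in AP3 nuclei. Over all genes tested 7.76% were called, 6.4% lower and 1.36% higher. LOG8 (AT5G11950), another activating enzyme, was at 28.4, 28.8 and 35.7 CPM in X13, X16 and X74 and at 69.4, 78.5 and 85.7 CPM in X14, X71 and X26 (log2 fold change -1.33, SE 0.17, adjusted p = 0.00232, edgeR). ABCG14 (AT1G31770), the exporter needed for transport of cytokinin from root to shoot, was at 19.8, 26.5 and 16.9 CPM in the AP3 libraries and 50.5, 55.4 and 111 CPM in the AG libraries (-1.78, SE 0.32, adjusted p = 0.011). These genes moved in the direction of the type-A ARRs. UGT76C2 (AT5G05860), which inactivates cytokinins by N-glucosylation, was at 25.8, 22.3 and 19.0 CPM in the AP3 libraries and 9.66, 6.16 and 8.40 CPM in the AG libraries (1.47, SE 0.24, adjusted p = 0.00673). CRF2 (AT4G23750), a cytokinin response factor of the AP2/ERF family, was at 76.0, 79.3 and 74.8 CPM in the AP3 libraries and 49.9, 30.2 and 24.8 CPM in the AG libraries (1.13, SE 0.25, adjusted p = 0.0255). The genes called higher in AP3 nuclei over both lists, LOG3, UGT76C2 and CRF2, thus include an activating and an inactivating enzyme. The 4 further type-B ARRs that were tested were not called, and neither were the other 5 CRF genes. CRF1 (0.89) and CRF5 (0.78) lay above the AG libraries in every AP3 library, and CRF3 (-1.34) and CRF4 (-0.86) lay below. CRF6 overlapped. Over all genes tested, 10.9% lay above without overlap and 15.0% below. IPT2, IPT9 and LOG5 had higher mean levels per kb than the listed members of their steps and were not called. IPT2, which acts on tRNA, was at 35.6 ± 6.05 CPM (SD, n = 3) in AP3 and 34.5 ± 5.12 in AG, and IPT9, which does likewise, at 22.4 ± 4.07 and 18.4 ± 2.65. LOG5 had the highest level per kb of all LOG genes, 76.7 CPM per kb, with a log2 fold change of -0.68 (adjusted p = 0.301, edgeR).

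**Figure D4:**
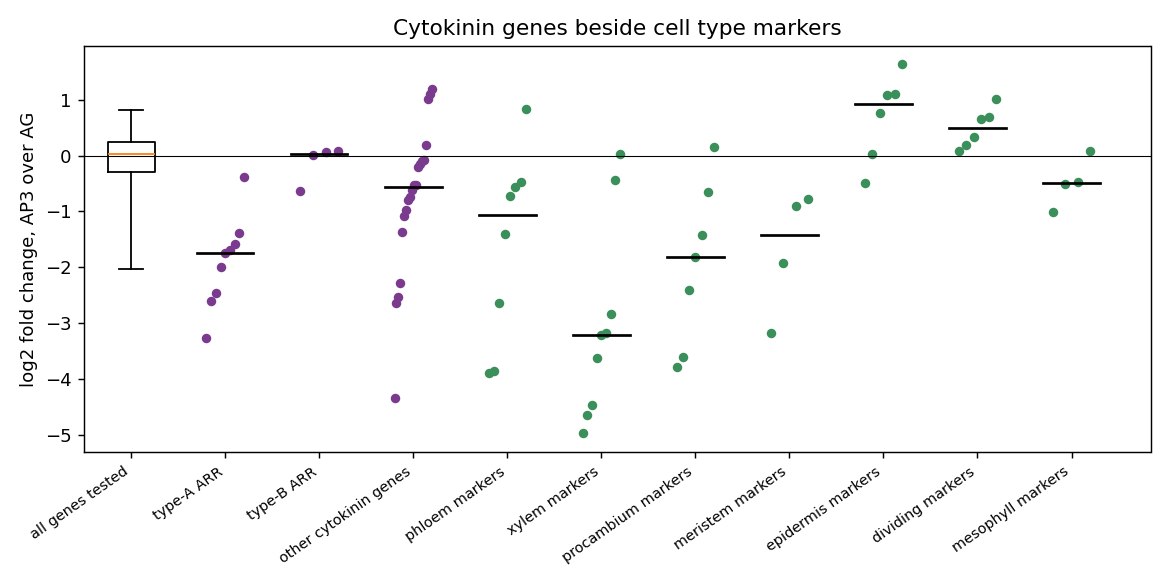
Log2 fold change (AP3/AG) of each tested cytokinin gene (purple) and cell type marker (green), with a bar at each median, beside a box of all 20013 genes tested (quartiles, whiskers from the 5th to the 95th percentile). The type-A median is -1.74 and the type-B median is 0.03. The vascular marker medians are -3.22 (xylem), -1.82 (procambium) and -1.06 (phloem). The other marker medians are -1.42 (meristem), -0.49 (mesophyll), 0.50 (dividing) and 0.93 (epidermis). The floral domain markers are not drawn.

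The procambium markers summed to 52.7 to 67.2 CPM per kb in the AP3 libraries and 183 to 205 in the AG libraries. Their AG over AP3 ratio was 3.18, and the type-A ARRs had a ratio of 2.40. The same ratio was 2.85 for the xylem, 2.77 for the meristem and 1.91 for the phloem markers. It was 1.05 for the mesophyll, 0.68 for the dividing and 0.38 for the epidermis markers. Among the procambium markers ATHB8, WOX4 and ACL5 had log2 fold changes of -2.40, -3.79 and -3.61, and TMO5, a transcription factor of early vascular cells, had one of -1.43. PXY was at -1.82, and SMXL5 (-0.66, adjusted p = 0.0739, edgeR) and MOL1 (0.16, adjusted p = 0.744) were not called. Of the procambium markers 5 of 7 were called lower, of the xylem markers 6 of 9 and of the phloem markers 4 of 8 tested, against 6.4% of all genes. How much of the type-A difference goes with these markers was not tested.

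X74 and X71 are a pair outside the authors' table and give a difference of their own. On log2(CPM + 0.5), X74 minus X71 had the same sign as the difference over the other 4 libraries for 28 of the 33 genes. The same share was not computed over all genes tested, so this count has no background beside it. The 5 of opposite sign were CKX1, AHP2, ARR1, ARR2 and ARR12, none of them called. The calls used all 6 libraries, this pair included, so a gene with opposite signs was unlikely to be called. That the 9 called genes had the same sign is therefore no separate check of them. For ARR9 the difference was -2.94 in the pair and -3.10 in the other 4 libraries, for ARR4 -1.93 and -1.62, and for LOG3 1.27 and 1.09. With only those 4 libraries in the test, 7 cytokinin genes were called, of which 5 were among the 9. ARR5, ARR6, ARR15 and LOG3 were lost, at adjusted p values of 0.0558, 0.0783, 0.0558 and 0.065, and CKX7 and LOG1 were gained, at 0.0419 and 0.039.

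**Figure D5:**
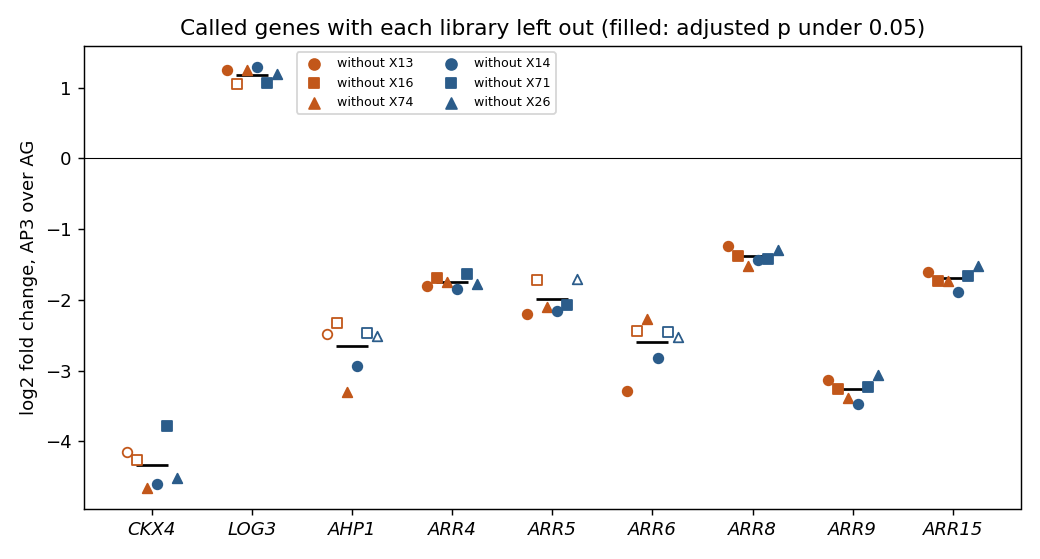
Log2 fold change (AP3/AG) of the 9 called genes with each library left out in turn, filled where the adjusted p stayed below 0.05 and open where it did not, with a black bar for all 6 libraries. All 9 genes keep their direction, and ARR4, ARR8, ARR9 and ARR15 keep the call in each case.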

How the data were processed

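Nuclear RNA of 6 libraries was amplified with SMART-Seq v4. The authors trimmed reads, mapped them to TAIR10 with STAR 2.7.0b, kept uniquely mapped reads, and deposited unnormalized counts per gene. Per the file headers, featureCounts 1.6.0 counted read pairs over whole genes, introns included, without strand. The authors also deposited log2-like variance stabilized values from DESeq2 1.24.0 for 4 libraries (X13, X16, X14 and X26), used here only as an alternative. Coordinates are those of the count files, and 33043 of the 33056 genes matched to RefSeq had identical ends.

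Here, the 285 genes of the organelles were removed. A gene needed over 10 reads in at least 2 of the libraries to enter the test by edgeR 4.0.16 (R 4.3.3), TMM normalization, the quasi-likelihood test and Benjamini-Hochberg adjustment over 20013 genes, with calls at an adjusted p below 0.05. Standard errors were back-calculated from the F statistic, and intervals are 95%. The total counts of 28808948 to 42089156 include organelle genes, and CPM used TMM-scaled library sizes without them, where 1 read is 0.0267 to 0.0369 CPM. Levels per kb use the whole counted gene. Alternatives were DESeq2 1.42.0, other normalizations and filters, organelle genes kept, the 4 libraries, a library code block and leaving out each library. The members and lists were chosen with earlier results of these data known. Values were given for called genes, AHP6, AHK4, the type-A ARRs and the highest gene per kb of each step, and others are named to account for the lists. The code was tested on simulated data. Protein sequences were not used here.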

Additional observations from a re-analysis of the deposited data

How the results depend on the processing

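Of the 9 calls, ARR4, ARR8 and ARR9 held in all 14 alternatives, ARR15 in 13, CKX4 and LOG3 in 12, ARR5 in 11, and AHP1 and ARR6 in 10. No call changed sign. DESeq2 called 14 cytokinin genes, 13 of them lower in AP3 (ARR10, ARR16, CKX6, CKX7 and IPT5 were added), and 2435 genes in all against 1554. In the 4 libraries with authors' normalized values, 0 cytokinin genes were called higher, 3 type-A ARRs were called lower, and 1022 genes were called in all. Leaving out each library gave 4 to 12 cytokinin genes called, 4 to 11 lower and 0 to 1 higher, with 4 to 6 type-A ARRs, and 737 to 1480 genes in all. The lowest counts came without X16, where AHP1, ARR5, ARR6, CKX4 and LOG3 lost their call, and without X26 5 were called lower. A block for the library code (X71 with X74), the nearest to a paired fit, called 12 (11 lower). No paired analysis was possible because the labels give no replicate numbers. The cause of these changes was not tested.

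Genes that were not called and whose log2 fold change turned sign lay near 0. AHP2 came to 0.036, ARR1 to -0.0090 and ARR2 to -0.054 with the 4 libraries, and ARR2 to -0.022 with upper quartile scaling and -0.0016 with organelle genes kept. Without X16, CKX1 came to -0.0038, AHP2 to 0.018, ARR1 to -0.091, ARR2 to -0.13 and ARR12 to -0.033. Without X71, AHP2 came to 0.11, ARR1 to -0.039 and ARR2 to -0.14, and without X13 CKX1 came to -0.12. ARR3 passed the filter in 10 alternatives only. Precision was limited by 3 libraries a group, and for CKX4, ARR3 and IPT genes by few reads.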

Other observations

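In the list of further pathway genes, X13 stood apart from the other 5 libraries in a pair of genes. DOGT1 (AT2G36800), which O-glucosylates zeatin and glucosylates brassinosteroids, reached 43.0 CPM in X13 and 2.36 to 5.36 CPM in the others. The response factor CRF6 (AT3G61630) reached 146 CPM in X13 and 5.49 to 23.5 CPM in the others. Neither was called between the AP3 and AG libraries, at adjusted p values of 0.258 and 0.414 (edgeR).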
